A study of Mus musculus with 3 samples.

Results

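The regions described here are intergenic regions near coding genes, that is, places with a CUT&Tag peak for Flag-tagged Bcl11a in each of 3 libraries, whose summit lay outside every annotated gene, more than 1 kb from any gene end and at most 100 kb from a protein-coding gene, measured to its closer end. Peaks of the 3 libraries were joined where they overlapped by at least 1 bp, which gave 60816 joined regions, and 22987 of these held a peak of every library. Of the 22987 regions, 3762 (16.4%) met the rule. They covered 2.70 Mb of the mm10 assembly.

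Bcl11a is a zinc finger protein that mostly represses its targets. It is known for silencing the fetal globin genes, for its role in lymphoid development, and for its part in keeping blood stem cells functional. Intergenic DNA around blood genes holds enhancers, stretches that raise the transcription of a gene at a distance and carry sites for many factors at once. A peak in such a place shows where the tagged protein, or chromatin that is easily reached by the transposase, lay. It does not show which gene is served, and every gene named below is the nearest coding gene by annotated ends and no more than that.

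All 3 libraries belonged to a single group. The cells were LSK cells from mouse bone marrow, sorted by Kit and Sca-1 and for the lack of lineage markers, a fraction that holds the blood stem cells and early progenitors, and the labels give neither age nor sex. The design text describes mice whose Bcl11a gene carries a 3xFlag epitope at the start of the protein, so that the tagged protein is made from its own gene, while the genotype field of each sample reads wildtype. The stated purpose was to learn how Bcl11a acts in blood formation. CUT&Tag uses an antibody to bring a cutting and tagging enzyme to a protein on chromatin, so that nearby DNA can be sequenced. Control libraries, such as untagged cells or input DNA, were not analysed here, and nothing in the labels says that the libraries came from separate animals, so SDs and tests over libraries measure only the spread between these libraries, which may be technical. Library 1 listed 38739 peaks, library 2 listed 36466 and library 3 listed 43469. The coverage that the lists imply for background sequence was 1.07, 1.41 and 1.95 fragments per base, so peaks of library 1 rest on the fewest fragments.

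The sequence of the regions themselves was not read here, because only windows in front of gene starts were at hand. Those windows, the 250 bases before each annotated transcription start of 17492 coding genes (21263 windows, RefSeq, GRCm38.p6), met the intergenic regions at a single place. A region of 1934 bp at Hmga1 (chr17:27555004-27556937), the gene of a chromatin protein that bends AT-rich DNA, had its summit 1034 bp upstream of the gene, yet its downstream edge ran over the gene's start and held 2 windows whole. It had a fold enrichment of 6.48, 6.14 and 5.58 in libraries 1, 2 and 3, with 140, 210 and 217 fragments at its summit. The other windows shown are those of 4 genes with many intergenic regions nearest to them, described below, and each of these 4 starts was itself covered by a region with a peak of every library. Hmga1 lies at chr17:27556324-27556573 (plus strand), Runx3 at chr4:135120395-135120644 (plus), Irf2bp2 at chr8:126593987-126594236 (minus), Ptma at chr1:86526307-86526556 (plus) and Cebpb at chr2:167688665-167688914 (plus). Capitals mark any match, on either strand, to the 8 motifs listed after the sequences.
Hmga1: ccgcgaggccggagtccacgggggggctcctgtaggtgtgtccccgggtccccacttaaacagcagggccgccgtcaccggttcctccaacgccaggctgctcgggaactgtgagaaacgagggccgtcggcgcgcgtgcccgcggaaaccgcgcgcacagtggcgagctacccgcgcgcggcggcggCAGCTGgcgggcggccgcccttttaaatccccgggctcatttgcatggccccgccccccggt
Runx3: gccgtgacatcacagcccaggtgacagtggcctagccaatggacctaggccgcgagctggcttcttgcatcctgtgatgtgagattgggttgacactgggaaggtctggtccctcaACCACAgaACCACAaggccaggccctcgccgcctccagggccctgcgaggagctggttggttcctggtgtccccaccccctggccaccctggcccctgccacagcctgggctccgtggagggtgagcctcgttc
Irf2bp2: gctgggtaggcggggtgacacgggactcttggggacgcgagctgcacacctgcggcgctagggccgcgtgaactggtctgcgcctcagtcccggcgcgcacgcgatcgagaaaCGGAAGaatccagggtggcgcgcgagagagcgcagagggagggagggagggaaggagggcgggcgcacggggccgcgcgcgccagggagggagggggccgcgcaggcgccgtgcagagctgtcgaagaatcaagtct
Ptma: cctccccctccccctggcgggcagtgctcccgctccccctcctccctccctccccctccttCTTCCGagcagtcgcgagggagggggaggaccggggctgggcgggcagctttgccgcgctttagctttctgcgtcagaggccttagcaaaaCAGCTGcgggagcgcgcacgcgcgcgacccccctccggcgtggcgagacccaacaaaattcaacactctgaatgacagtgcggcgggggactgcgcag
Cebpb: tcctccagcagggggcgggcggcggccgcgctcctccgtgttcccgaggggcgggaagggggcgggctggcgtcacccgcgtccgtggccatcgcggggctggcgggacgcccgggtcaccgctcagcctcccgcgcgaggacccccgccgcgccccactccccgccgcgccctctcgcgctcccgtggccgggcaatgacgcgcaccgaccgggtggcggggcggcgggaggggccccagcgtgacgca

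The letters searched were TGACCA (described for Bcl11a), GATAA (the motif of GATA factors), TGTGGT (RUNX factors), CGGAAG (a strict ETS form), AGGAAG (a looser ETS form), CAGCTG (an E-box), CAGATG (another E-box) and TGACTCA (AP-1). The Runx3 window held 2 copies of TGTGGT read on the opposite strand, a letter string present in 12.4% of all 21263 windows. None of the 5 windows held TGACCA, which was present in 10.5% of all windows and in 10.2% of the 2652 windows of genes nearest to an intergenic region. The letters GATAA stood in 20.5% of all windows and in 15.6% of those 2652. CGGAAG stood in 17.1% of all windows, AGGAAG in 28.5%, CAGCTG in 12.1%, CAGATG in 12.4% and TGACTCA in 4.06%. A match is a letter string and not a known site, and windows without one say nothing about the intergenic regions, which lie elsewhere.

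Intergenic regions were narrow and their summits lay close together between libraries, which the overlap asked of their peaks favours. Their median width was 663 bp (range 225 to 3169 bp), and 95.4% consisted of a single peak in each library. The 3 summits of a region lay within a median of 120 bp of each other, and within 200 bp in 74.3% of regions. Regions inside coding genes were alike, with a median width of 705 bp and a median summit range of 132 bp. Reproducibility of the intergenic regions was lower than at gene ends. Of 12782 joined intergenic regions, 29.4% held a peak of all 3 libraries, beside 30.7% of those inside coding genes, 65.5% of those within 1 kb of a coding gene end and 19.6% of those in gene deserts, the intergenic sequence more than 100 kb from a coding gene. The 3762 regions were chosen for a peak in every library. Across them, as a description, fold enrichments of any 2 libraries had a Spearman's rho of 0.701 to 0.747.

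In strength the intergenic regions stood beside regions inside genes and below regions at gene ends. Fold enrichment is the caller's ratio of summit pileup to local background, the authors' own value for each peak. Its median over intergenic regions was 6.05, 5.92 and 5.67 in libraries 1, 2 and 3. Regions at coding gene ends had 7.20, 7.48 and 6.96, and the intergenic regions were lower in each library, by a mean log2 difference of -0.29 ± 0.04 (SD, n = 3 libraries; exact two-sided sign-flip permutation test, p = 0.25). With 3 libraries this test cannot go below 0.25, so no such difference can pass a threshold of 0.05. Regions inside coding genes had 5.80, 5.76 and 5.43, a log2 difference of 0.05 ± 0.01 in favour of the intergenic regions in 3 of 3 libraries (exact p = 0.25).

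The order of intergenic and intragenic regions depended on the measure. By summit pileup over library background the intergenic regions were the lower ones in 3 of 3 libraries, by -0.08 ± 0.02 on the log2 scale, with median pileups of 18, 22 and 27 fragments against 19, 23 and 29 (exact p = 0.25). By −log10 q the sign differed between libraries, with a mean of -0.0037 ± 0.03 (exact p = 1). The gap to coding gene ends held its direction by pileup (-0.43 ± 0.07) and by −log10 q (-0.63 ± 0.11), with 3 of 3 libraries lower for each (exact p = 0.25). Gene desert regions had a fold enrichment of 6.54, 6.29 and 6.16, above the intergenic regions in each library (-0.11 ± 0.02, exact p = 0.25). By pileup over background the difference from gene desert regions was 0 in libraries 1 and 2 and 0.054 in library 3 (exact p = 1), and by −log10 q the intergenic regions were lower in 3 of 3 libraries (-0.21 ± 0.04, exact p = 0.25).

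**Figure D1:**
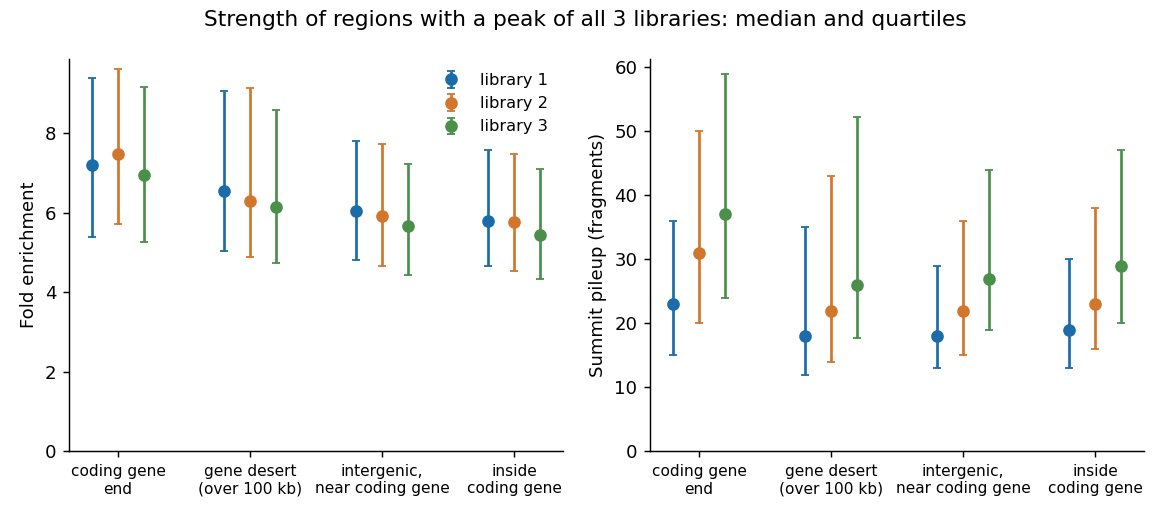
Points give the median and bars the quartiles of fold enrichment (left) and of summit pileup in fragments (right) for each class of region and each of the 3 libraries. The intergenic medians of fold enrichment, 6.05, 5.92 and 5.67, lie below those at coding gene ends and slightly above those inside coding genes, and for pileup the last order is turned.

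The regions thinned out with distance from a gene. To allow for the amount of sequence that the rule could have taken, each count was divided by the Mb of eligible sequence, meaning outside genes, more than 1 kb from any gene end and within 100 kb of a coding gene (693.7 Mb in all, sampled every 50 bp). The density over all of it was 5.42 regions per Mb. It was 9.75 per Mb at 1-2 kb from the nearest coding gene end, 8.04 at 2-5 kb, 7.81 at 5-10 kb, 6.73 at 10-20 kb, 5.30 at 20-30 kb, 3.95 at 30-50 kb and 2.74 at 50-100 kb. Counting every intergenic peak of a single library in place of reproducible regions, the density went from 19.5 ± 2.05 per Mb at 1-2 kb to 5.99 ± 0.69 at 50-100 kb (SD, n = 3 libraries), and each library fell between those ends. The median distance was 13458.5 bp. Regions close to genes had the lower values. In library 1 the median fold enrichment was 5.37 at 1-2 kb and 6.43 at 50-100 kb, in library 2 it was 5.30 and 6.23, and in library 3 it was 5.17 and 5.95.

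**Figure D2:**
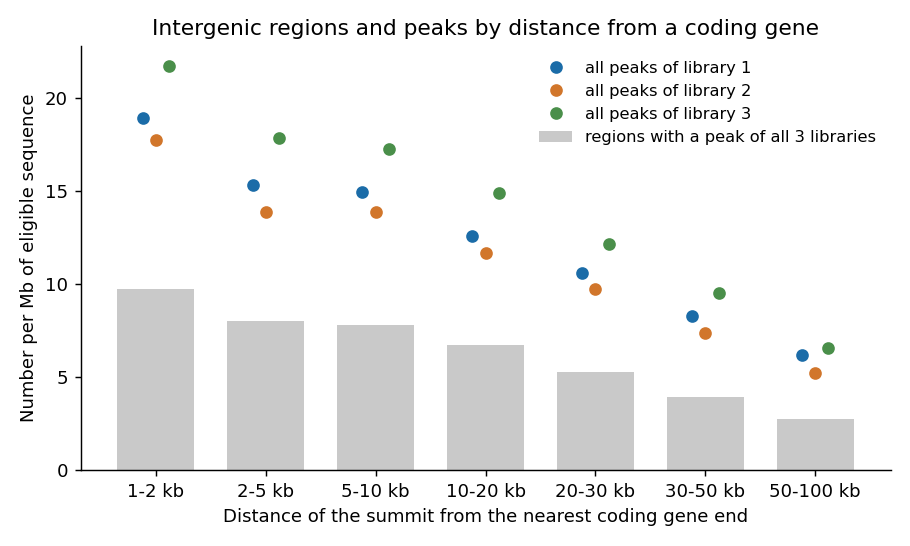
Grey bars give reproducible intergenic regions per Mb of eligible sequence by distance of the summit from the nearest coding gene end, and points give all intergenic peaks of each library counted the same way. The bars go down from 9.75 at 1-2 kb to 2.74 at 50-100 kb, and the points of all 3 libraries go down with them.

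The sides of genes differed little. For 2951 regions whose nearest coding gene has a known strand, 53.6% lay upstream, where 52.8% of the eligible sequence lay. Densities were 5.50 per Mb upstream and 5.32 downstream, and by single libraries 11.1 ± 1.17 and 10.8 ± 1.39 (SD, n = 3). Taken within libraries 1, 2 and 3, the densities upstream and downstream were 10.95 and 10.56, 9.99 and 9.60, and 12.32 and 12.33. The small gap thus turned its sign in library 3. Between genes that point away from each other the density was 5.97 per Mb (11.9 ± 1.33 by single libraries), between genes in tandem 5.07 (10.3 ± 1.09) and between genes that point toward each other 5.14 (10.4 ± 1.44), and the first was the highest of the 3 in each library.

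Chromosomes differed more. Chromosome 11 had 10.7 regions per Mb, chromosome 17 had 9.22 and chromosome 15 had 8.87, while the lowest autosome, chromosome 13, had 4.01. Single-library densities were 21.0 ± 1.78 on chromosome 11 and 9.25 ± 1.62 on chromosome 13 (SD, n = 3). The X chromosome held 40 regions in 58.3 Mb of eligible sequence, 0.69 per Mb, and its single-library density was 1.41 ± 0.17. The Y chromosome held 14 regions at 0.35 per Mb, and 10 of the 14 lay nearest to the same gene. The sex of the animals is not given.

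Intergenic regions were denser beside genes that were occupied themselves. A gene end counted as occupied when a region with a peak of every library had its summit within 1 kb of it. The nearest coding gene end was occupied for 1205 of the 3762 regions (32.0%), whereas 16.5% of the eligible sequence had an occupied end nearest to it. The density was 10.5 regions per Mb beside an occupied end and 4.42 beside one that was not, a ratio of 2.38. Recomputed from the peaks of a single library the ratio was 2.15, 2.28 and 2.08 (2.17 ± 0.10, SD, n = 3). The ratio was above 1 in each of the 7 distance bins, from 1.41 at 2-5 kb to 3.46 at 50-100 kb. Upstream of genes the densities were 10.2 per Mb beside occupied starts and 3.47 beside others, and downstream they were 22.3 beside the few occupied finishes (73 regions) and 5.10 beside others. The order of strength depended on the measure. Median fold enrichment beside occupied ends was 5.97, 5.83 and 5.61 in the 3 libraries, lower than the 6.09, 5.96 and 5.71 beside the rest. Median summit pileup was the higher one beside occupied ends, with 19, 24 and 30 fragments against 17, 21 and 26.

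A total of 2602 of 21887 coding genes (11.9%) were nearest to at least 1 intergenic region. An end was occupied in 9374 genes (42.8%), and 15.6% of those had an intergenic region, against 9.07% of the genes with no occupied end. Most genes had few: 1895 had 1 region, 447 had 2, 150 had 3, 65 had 4 and 45 had 5 or more, and those 45 genes took 263 regions. An end was occupied in 34 of the 45 (75.6%). Regions of these 45 genes had higher pileups, with medians of 27, 35 and 43 fragments against 16, 20 and 25 for genes with a single region. Their fold enrichment was lower, with medians of 5.60, 5.45 and 4.93 against 6.25, 6.13 and 5.87.

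Runx3 had the most by count. It encodes a RUNX family transcription factor that steers T cell and natural killer cell development, and 12 intergenic regions lay nearest to it, 9 upstream and 3 downstream. By density it did not lead, with 126 regions per Mb of eligible sequence. Among genes with 5 or more regions, Gm40363 had 340 per Mb, Actb 198 and Egfl7 179. The strongest (chr4:135192641-135193602), 15100 bp downstream, had a fold enrichment of 12.3, 12.8 and 11.5 in libraries 1, 2 and 3 and summit pileups of 97, 126 and 166 fragments. The tallest, 50601 bp upstream (chr4:135069570-135070543), had pileups of 274, 336 and 372 fragments and a fold enrichment of 11.3 ± 1.65 (SD, n = 3). A similar one 40175 bp upstream (chr4:135079849-135080944) had 251, 327 and 377 fragments and 9.90 ± 0.89. The weakest of the 12, 1322 bp downstream, had 3.31 ± 0.48, so the regions of this gene spread over more than the error of any of them. The interval between Runx3 and its upstream neighbour Syf2, 183.1 kb long, held 14 intergenic regions, 9 nearest to Runx3 and 5 nearest to Syf2, more than any other interval between neighbouring coding genes. In all, 78 intervals held 5 or more regions, 469 together.

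Among genes of myeloid fate, Cebpb, a factor of emergency granulocyte formation, was nearest to 8 regions, 3 upstream and 5 downstream. Its strongest, 63680 bp downstream (chr2:167752931-167754534), was 1604 bp wide, with a fold enrichment of 9.99, 9.56 and 8.77 and with 156, 193 and 240 fragments at its summit. Irf8, which sets monocyte and dendritic cell fate, was nearest to 6. The strongest, 11053 bp upstream (chr8:120725091-120725870), had 8.13, 5.45 and 9.09, a spread between libraries (7.55 ± 1.89) that covers the 5.96 ± 2.14 of the one 20911 bp upstream. Cebpa, the factor that starts granulocyte and monocyte commitment, was nearest to 4, all of them weak by fold enrichment. They ran from 4.13 ± 0.50 at 29063 bp downstream to 4.89 ± 0.75 at 20105 bp upstream. Those 4 do not differ in fold enrichment beyond their spread. By summit pileup over library background, as the geometric mean over libraries, the upstream region had 9.30. The others had 18.1 to 21.1, against a median of 15.2 for all intergenic regions.

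Several other genes had 5 or more regions. Socs3, which damps cytokine signalling through STAT3, was nearest to 7, of which 6 lay downstream. Its strongest lay 5810 bp upstream (chr11:117975887-117976634), with a fold enrichment of 8.14, 6.77 and 6.86, and its others ran from 3.88 ± 0.63 to 6.30 ± 0.16. Irf2bp2, a partner of IRF2 in repression, was nearest to 9, and Irf2 itself, a repressor of interferon responses, to 5. The strongest at Irf2, 22204 bp downstream (chr8:46869232-46870028), had a fold enrichment of 10.8, 11.2 and 11.4. The others of that gene were well below it by this measure, with means of 3.56 to 4.91. It did not lead by summit pileup, with 30, 37 and 53 fragments against 30, 42 and 54 for the region 5151 bp downstream. Ptma, the gene of the chromatin protein prothymosin alpha, was nearest to 7, of which the one 22217 bp upstream (chr1:86503265-86504843) had 191, 261 and 323 fragments at its summit. Vegfa, the main angiogenic growth factor, had 6 and Bahcc1, a reader of repressive histone methylation, had 7.

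**Figure D3:**
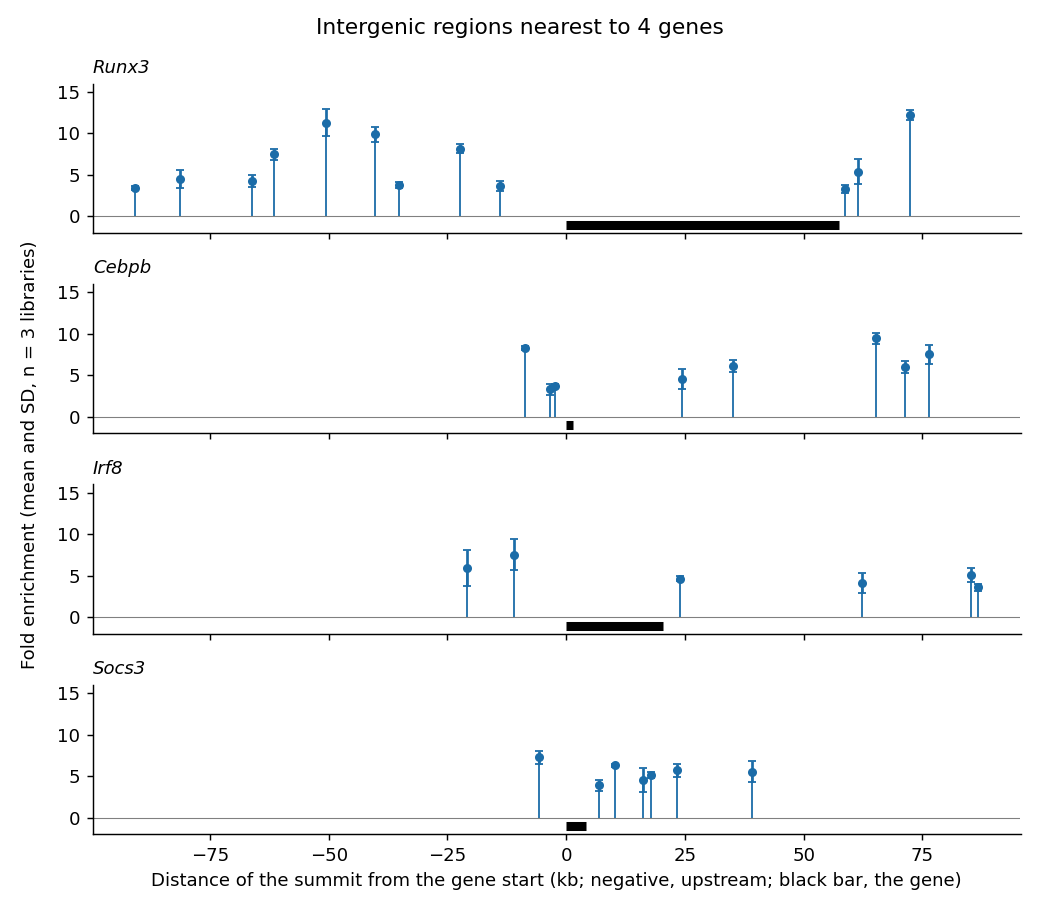
Each stem is an intergenic region nearest to Runx3, Cebpb, Irf8 or Socs3, placed by the distance of its summit from the gene start in kb (negative, upstream) with its fold enrichment (mean and SD, n = 3 libraries), and the black bar is the gene. Regions of Runx3 lie mostly upstream and reach 12.2, while those of Socs3 lie mostly downstream and stay between 3.88 and 7.26.

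Other genes of that ranking are predicted or lie far from their regions. Gm52481, a predicted gene near the end of the Y chromosome, was nearest to 10 regions, with fold enrichments from 2.05 to 10.9. Scaf8 was nearest to 8, all of them between 76825 and 96514 bp upstream and within the first 3038627 bp of chromosome 17, and 3 of these had a pileup of at least 200 times background. Gm45988, a predicted gene of chromosome 7, was nearest to 7 (5.88 to 10.1).

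Genes with enhancers described far from their promoters in blood cells were then examined one by one. This list, like the others, was chosen with earlier results of these data known. Of its 28 genes, 17 (60.7%) were nearest to at least 1 intergenic region, against 11.9% of all coding genes. The genes of the list were nearest to 43 regions in 1.37 Mb, 31.3 per Mb, 5.78 times the density over all genes, and by single libraries 48.6 ± 3.67 against 11.0 ± 1.30 per Mb (SD, n = 3). Beside Cebpb, Irf8 and Cebpa these included Runx1, the master factor of blood stem cell emergence, with 3 regions, all upstream. The strongest, 58150 bp away (chr16:92883815-92884503), had 9.21, 10.1 and 6.62, and the weakest had 3.45 ± 0.14. Kit, the stem cell factor receptor by which these cells were sorted, had 3 downstream regions, and the one 74121 bp away (chr5:75730578-75731571) had 11.0, 10.3 and 6.55. Id2, an inhibitor of E proteins that favours innate lymphoid and myeloid fates, had 3. Its region 23423 bp upstream (chr12:25119138-25119773) had 13.3, 12.4 and 9.63, far above the 4.31 ± 1.03 and 4.13 ± 1.0 of the others, which lay close to the gene.

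Several factors of the stem cell network had 1 or 2 regions. Erg and Fli1, ETS factors that stem cells depend on, had 2 each. At Erg these reached 7.97 ± 2.25 and 6.63 ± 0.80, and at Fli1 7.12 ± 0.83 and 4.33 ± 0.31. Gfi1b, a repressor needed for red cells and platelets, had 2, with means of 6.98 and 4.62. Tal1, the bHLH factor at the top of the blood hierarchy, had 1 (6.31 ± 1.15), as did Meis1, a partner of Hox proteins (5.68 ± 0.87), Hoxa9 (5.28 ± 0.34), Spi1, which encodes PU.1 (4.59 ± 0.21), and Zfpm1, a GATA cofactor. The other 11 genes of the list, among them Gata2, Gfi1, Lmo2, Myb, Hhex, Ikzf1, Cdk6 and Myc, were nearest to none. An end was occupied in 7 of the 11, beside 22 of the 28 genes of the whole list (78.6%) and 42.8% of all coding genes. Ly6a, the Sca-1 gene, had no eligible sequence of its own, Gata2 had 6.60 kb, Csf1r 9.25 kb and Ikzf1 12.65 kb. Myc, with 142 kb, and Myb, with 60.35 kb, had no region either. Among genes with a region, Hoxa9 had 1.25 kb of eligible sequence, Spi1 5.15 kb and Tal1 7.5 kb. Whether the amount of eligible sequence has a part in this was not tested. Nearest to Cdk6 lay 6 regions inside coding genes, which the rule leaves out. Regions more than 100 kb from a coding gene were not counted for any gene.

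Surface marker genes of blood stem and progenitor cells were looked at as well, of which Kit and Ly6a, the Sca-1 gene, belong to the sort itself. Of 6 marker genes, 4 were nearest to intergenic regions, 7 in all, beside 11.9% of all coding genes. Besides Kit, the stem cell antigen gene Cd34 had 2 upstream regions, at 7.96, 9.66 and 8.66 for the nearer (chr1:194927752-194928314) and 6.29, 7.48 and 5.77 for the farther. Procr, which marks the most primitive stem cells, had 1 (7.75 ± 1.17), and Slamf1, the CD150 gene, had 1 (6.36 ± 1.39). Flt3 and Ly6a had none. Flt3 had 8.8 kb of eligible sequence, and 3 regions inside coding genes lay nearest to it.

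The Bcl11a locus, at which the tag was inserted, had 2. Both lay downstream of the gene. The one 11669 bp away (chr11:24184886-24185763) had a fold enrichment of 8.42, 9.79 and 10.3 and 38, 55 and 82 fragments. The one 19296 bp away (chr11:24192403-24193085) had 4.51, 4.57 and 3.41 and 10, 13 and 13 fragments, below the first in each library. A stronger region farther downstream (chr11:24199797-24201065), with 14.8, 12.1 and 11.4, lies inside an annotated non-coding gene and is not an intergenic region by the rule.

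Lists of genes by lineage and process spread widely in density. Among 30 myeloid genes, 13 were nearest to a region, with 31 regions at 36.3 per Mb, the highest density of the 17 lists and 6.69 times that of all coding genes. Many of the 31 lay at a few genes, with 8 at Cebpb, 6 at Irf8 and 4 at Cebpa. Single libraries gave 58.5, 55.0 and 56.1 per Mb for that list against 10.8, 9.77 and 12.4 for all genes. Among 30 lymphoid genes, 15 had regions (40 regions, 28.2 per Mb), led by Runx3 with 12. Ccr7, the homing receptor of naive T cells, and Foxo1 and Lef1, which guide early B and T cells, had 4 each. Among 31 interferon and inflammatory genes, 11 had regions (25 regions, 28.8 per Mb), with Socs3, Irf2, Nfkbia, the inhibitor of NF-kB, at 3, and the interferon receptor gene Ifnar2 at 2.

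Lists of stem cell genes, of red cell and platelet genes and of several processes came lower in density. The order by share of genes with a region was another. That share was 46.4% for stem cell transcription factors, against 43.3% for myeloid, 50% for lymphoid and 35.5% for interferon and inflammatory genes. Stem cell transcription factors had regions at 13 of 28 genes (20 regions, 16.3 per Mb, single libraries 31.4 ± 5.88), and surface and signalling genes at 11 of 27 (18 regions, 12.4 per Mb). Genes of red cells and platelets had them at 9 of 33 (12.8 per Mb), with Hemgn, a target of HOXB4, at 2. Quiescence and cell cycle genes had them at 6 of 31 (14 regions, 12.1 per Mb), of which Foxo3, a keeper of stem cell quiescence, had 4 and the cyclin gene Ccnd1 and the antiproliferative gene Btg2 had 3 each. Genes that rise in aged stem cells had them at 11 of 34 (10.6 per Mb), led by the AP-1 gene Fos with 4. Known partners, targets and relatives of Bcl11a had them at 7 of 25 (11 regions, 13.3 per Mb), with Id2, Bcl11a itself and the survival gene Bcl2 at the head.

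Housekeeping lists were not at the bottom. Ribosomal protein genes reached 15.7 per Mb (15 of 85 genes, 17.6%), with Rplp1 at 4 and Rpl3 at 2, and proteasome genes 9.20 per Mb (5 of 40 genes). An end was occupied in 81.2% and 75% of these genes, against 42.8% of all coding genes. Lists of cells outside the sort came lowest in density, but not all of them by share of genes with a region. That share was 43.5% for stroma and endothelial genes, 18.2% for hepatocyte genes and 12% for neuronal genes, against 11.9% of all coding genes. It was 1.83% for keratin genes and 0.81% for olfactory receptor genes. Olfactory receptor genes had regions at 9 of 1110 genes (0.39 per Mb), keratin genes at 2 of 109 (2.19 per Mb), neuronal genes at 3 of 25 (2.14 per Mb) and hepatocyte genes at 4 of 22 (6.78 per Mb). By single libraries hepatocyte genes had 10.2, 11.9 and 10.2 per Mb (10.7 ± 0.98), against 10.8, 9.77 and 12.4 for all genes, so the sign of the difference changed between libraries. Genes of marrow stroma and vessels stood at 7.86 per Mb, with 10 of 23 genes nearest to a region, among them Adipoq with 2 and Tie1, Pdgfrb and Runx2 with 1 each. Their single-library density of 15.01 ± 1.89 lay above the 11.0 ± 1.30 of all genes. What part stroma or lineage cells passing the sort have in these values was not tested. The 17 lists share 43 genes. Fold enrichment did not follow density at the ends of the order. Its median was 5.11 for regions of myeloid genes, 6.59 for those of olfactory receptor genes and 5.87 for all. Pileup was not compared between lists.

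**Figure D4:**
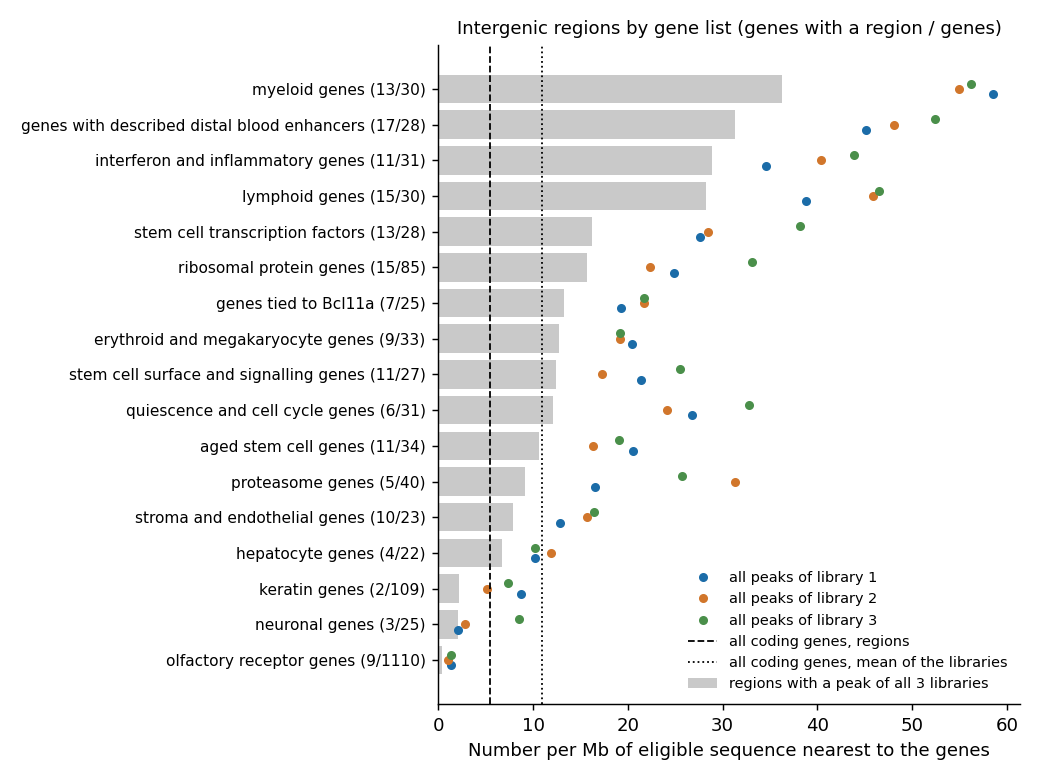
Grey bars give intergenic regions per Mb of eligible sequence nearest to the genes of each list, with the number of genes with a region out of the genes listed in parentheses, and points give all intergenic peaks of each library. Myeloid genes stand at 36.3 and olfactory receptor genes at 0.39, against 5.42 for all coding genes (dashed line).

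The strongest regions of all were of another kind. The 10 with the highest fold enrichment had means of 39.0 to 45.2, were 282 to 531 bp wide, and lay nearest to Creb3l1, Adgre5, Asmt, Gm9631, B230307C23Rik, Cr2, Tcstv3, Tmem196, Zfp945 and Rimbp3, of which Cr2, the complement receptor of B cells, and Adgre5, the CD97 gene, are known in blood cells. At Creb3l1 (chr2:92093595-92093876) the fold enrichment was 50.5, 44.1 and 41.0 with 662, 686 and 807 fragments. All 10 had a summit pileup, as the geometric mean over libraries, of at least 200 times the library background. This limit was chosen after the values were seen. It took 35 of the 3762 intergenic regions (0.93%), against 42 of 564 gene desert regions (7.45%), 24 of 7727 regions inside coding genes (0.31%) and 8 of 8513 regions at coding gene ends (0.09%).

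By the median, libraries did not scale in these 35 as they did elsewhere. The median ratio of pileup in library 3 to library 1 was 1.19, against 1.51 for the other 3727 regions and 1.82 for the background of the libraries. Their median pileups were 443, 553 and 603 fragments, with a fold enrichment of 33.9, 29.5 and 28.1. Their local background was 23.6, 24.5 and 20.8 times that of the library, against 1.90, 1.95 and 1.98 for the others. Fragments of a tall peak count in its own local background, so this value is not separate from the pileup by which the 35 were chosen. The tallest, near Mrgprd, a receptor gene of sensory neurons (chr7:145340926-145341458), had 5447, 5634 and 5594 fragments, nearly the same in each library. Within the 35, 22 had a fold enrichment of 20 or more and 13 had less. The 13 include the pair upstream of Runx3, with ratios of library 3 to library 1 of 1.36 and 1.502. Such ratios were not particular to that pair, with 1.87 near Cr2, 1.76 near Csf2ra and 1.46 near Mid1. Over the 10 regions of highest fold enrichment the ratio ran from 0.905 to 1.87. No list of repeat-rich sequence was used here.

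**Figure D5:**
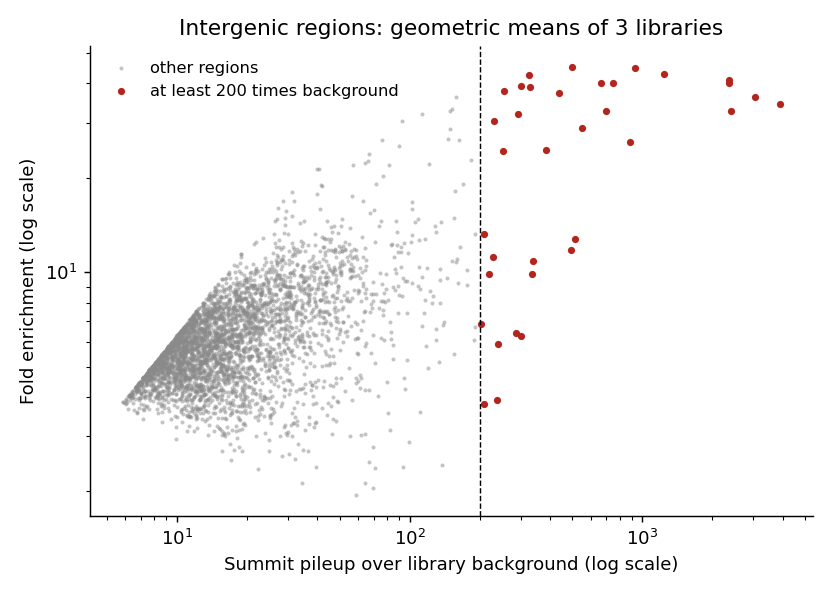
Each point is 1 of the 3762 intergenic regions, with its summit pileup over library background (x axis, log scale) and its fold enrichment (y axis, log scale), both as geometric means of 3 libraries. The 35 regions at or above 200 times background (dashed line) are in red, and most of them stand above a fold enrichment of 20.

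Below that limit, the next regions by pileup were nearest to Zswim4 (225, 286 and 318 fragments), Gnai2, a G protein subunit gene (190, 287 and 372), and Zfp36l2, an RNA-binding regulator of stem cell maintenance that lay 67169 bp away (192, 277 and 373). At Fosb, an AP-1 gene, a region 6577 bp upstream had 203, 245 and 326 fragments and a fold enrichment of 10.2 ± 1.02. Libraries differed at a few, as near Mfap2, where 233, 359 and 215 fragments gave 25.7, 28.2 and 16.4. The widest region, 3169 bp near Vmn1r2, had a fold enrichment of 6.82 ± 0.44, and the next were near Vmn2r129, Bcor, Lonrf2 and Mid1.

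The limits of the rule fall among regions of ordinary strength. Just inside the 1 kb limit were regions at Flt3l, the Flt3 ligand gene (1002.33 bp, 5.34 ± 0.89), and near Otud7a (1002.67 bp from the end of another gene, 7.09 ± 1.14), and just outside it regions at Cabp1 (999.667 bp, 11.1 ± 3.29) and Ccdc97 (998.333 bp, 3.49 ± 0.27). Just inside the 100 kb limit were regions near Ubl3 (99802 bp, 9.82 ± 1.81) and Spcs3 (99564 bp, 6.56 ± 1.04), and just outside it near Scaf8 (100278 bp, 3.59 ± 0.16) and Bank1 (100781 bp, 6.88 ± 2.29).

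Intergenic regions had near neighbours. The median gap from an intergenic summit to the nearest other region with a peak of every library, of any class, was 10797 bp, against 10638 bp for regions inside coding genes, 17289 bp for regions at coding gene ends and 43827 bp in gene deserts. A neighbour within 5 kb was present for 832 of the 3762 (22.1%), and another intergenic region lay within 5 kb of 577 (15.3%).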

How the data were processed

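CUT&Tag for Flag-tagged Bcl11a was run on 3 libraries of mouse LSK cells. Per the submitters' processing notes the tools were Bowtie2, SAMtools and MACS2 and the build was mm10, with no versions named. The treatment of duplicate fragments is not known here. The deposited files list the peaks of each library separately, with a fold enrichment (a ratio), a −log10 p, a −log10 q, a score (10 times the −log10 q without its decimals, not used) and a summit.

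Peaks were joined by an overlap of at least 1 bp. Per library a region takes the values of the strongest peak it holds there, and its summit is the mean over libraries of the summits of their widest peaks. Summit pileups and local backgrounds are not in the deposited lists and were solved from the fold enrichment, with 1 added to both pileup and background, and from the −log10 p as a Poisson tail. The pileups came out whole in 100% of peaks, to within 0.05. Fold enrichment is capped where a peak supplies most of the fragments in the caller's 10000 bp window, because these raise its own local background. Pileup over library background was therefore set beside it. Pileup depends on fragment length too, and PCR copies were not told apart.

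Gene ends came from a RefSeq table of GRCm38.p6, the assembly of mm10, with 21887 coding genes of 49943 genes. Strand was known for 17492 coding genes. The table gives outer ends only, so starts inside a gene are not seen. Classes were compared by the difference of median log2 values within a library with an exact two-sided sign-flip permutation test over libraries. Shares and densities were given with no test. The rule, the members and the gene lists were chosen with earlier results of these data known. Genes were named by this rule: the 10 strongest regions, the 10 genes with the most regions, 4 genes per list, the 5 widest and 5 tallest regions, 2 regions on each side of each limit, every gene of the list of described enhancers, the stem and progenitor cell markers and Bcl11a. A gene that this rule names is not reported here. Zswim4, Gnai2, Zfp36l2, Fosb, Mfap2, Syf2 and Hmga1 fell outside it and were chosen after their values were seen. Classes and pileups were tested on simulated data. Python 3.11.15, pandas 2.3.3, numpy 2.4.6 and scipy 1.17.1 were used. Mitochondrial peaks were left out of the regions.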

Additional observations from a re-analysis of the deposited data

Results flagged for a closer look

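Peaks on the mitochondrial chromosome lie outside the autosomes, X and Y and entered no comparison. Library 1 listed 8 of them, library 2 listed 7 and library 3 listed 7, with highest fold enrichments of 4.81, 4.37 and 4.95. They are given because they are signal in sequence that no comparison used, and no control library was there to set them against.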

How the results depend on the processing

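The lower strength of intergenic regions than of coding gene end regions kept its direction under every alternative run, with log2 differences from -0.63 to -0.12. The small difference from regions inside coding genes kept its direction under every choice of regions but turned to -0.082 by pileup over background and to -0.0037 by −log10 q, and the cause was not tested. Counts moved with how many peaks were asked for. With a peak of at least 2 libraries there were 6016 regions (18.3% of all, 8.67 per Mb, 36.2% with an occupied nearest end, median fold enrichment 5.32). With 50% reciprocal overlap the density was 3.65 per Mb, the occupied share 23.3% and the median 6.38. With −log10 q of at least 5 there were 2497 regions (14.9%, 3.60 per Mb, 27.0% occupied, median 6.77), and with the 10000 strongest peaks per library 911 (12.6%, 1.31 per Mb, 765 genes, 17.3% occupied, median 8.84). The share was 12.9% with 3 kb from gene ends and 14.2% within 50 kb. The share of eligible sequence with an occupied nearest end fell or rose with the occupied share, to 19.9%, 11.9%, 13.3% and 6.63% under these 4 settings, and the ratio of densities beside occupied and other ends was 2.29, 2.25, 2.42 and 2.96, against 2.38. Leaving out 1 library and asking for a peak of both others gave 4247 to 4674 regions, 16.9% to 17.4% of all, 6.12 to 6.74 per Mb, 2858 to 3068 genes, 32.8% to 34.3% occupied and a median of 5.41 to 5.77. Leaving out regions of at least 200 times background, chosen after seeing the data, moved none of these values beyond its spread.

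Of 187 recounts of list genes, 160 stayed within 1.5 times, and of 187 density ratios, 107 stayed within 1 SD of the libraries. Myeloid genes ran from 5.64 to 10.7 times all genes and olfactory receptor genes from 0.06 to 0.11, while stroma and endothelial genes (0.98 to 1.79) and hepatocyte genes (0.78 to 1.38) crossed 1. The weakest intergenic summits rest on few fragments, so a region missing in a library may lie below what its depth shows. Sequence content at summits was not run, since no genome was used here. No paired analysis was possible because the labels give a single group, so no groups share replicate numbers. Classes of regions were compared within each library.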
